A study of Mus musculus with 6 samples.

Results

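The suppressors of cytokine signalling (SOCS proteins) are the 8 related inhibitors encoded in the mouse by Cish and Socs1 to Socs7. The genes were chosen by name, and all 8 were found among the 54525 genes of the deposited table, each in a single entry. RNA sequencing measured total RNA of 6 cultures of C57BL/6 mouse T cells. Naive CD4 T cells taken from spleens and lymph nodes grew for 72 hours on coated antibodies against CD3 and CD28, with recombinant human TGFβ and mouse IL-6, a cytokine pair that steers such cells to the Th17 fate. Genotype iCD4-PRMT5fl/fl made up the WT group (3 cultures), and genotype iCD4-PRMT5delta/delta made up the KO group (3 cultures). All 6 cultures therefore came from animals carrying a modified Prmt5 allele, and the comparison is of the deleted against the floxed allele in cells activated and polarized alike. The labels do not say what drives the deletion, which exons were removed or whether cells of several animals were pooled. The study's title links PRMT5, an arginine methyltransferase, to Th17 responses. The present comparison asks how the brakes on the cytokine signals that shape those responses differed between the genotypes.

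SOCS genes form a feedback loop. Cytokines bind receptors that carry JAK kinases, the kinases activate STAT transcription factors, and STATs switch on several SOCS genes, whose proteins then block the receptor or kinase. Each protein holds an SH2 domain that binds phosphorylated tyrosine and a SOCS box that binds elongins B and C, the adaptors of a cullin ubiquitin ligase. CIS (from Cish), SOCS1, SOCS2 and SOCS3 are the members best known as cytokine-induced. SOCS4 to SOCS7 are known more from growth factor and insulin receptors. In T cells SOCS3 acts on gp130, the signalling chain of the IL-6 receptor, and restrains STAT3, the STAT that drives the Th17 type.

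Promoter sequence shows the letters through which STATs and interferon regulatory factors are known to bind. RefSeq promoter windows (GRCm38.p6, 250 bases before to 50 bases after a start) were matched for Cish, Socs1, Socs3 and Socs4. The STAT motif TTCNNNGAA, which reads the same on both strands, lay in 8.30% of all 32851 windows, and at least 2 copies lay in 0.457%. The motif of interferon regulatory factors, GAAA followed by any 2 bases and GAAA again, was searched on both strands and lay in 3.44%. Cish held 2 STAT motifs just past its RefSeq start, Socs3 held 1 upstream of its RefSeq start, and Socs1 held 2 overlapping interferon motifs. The RefSeq starts of Cish (107296659) and Socs3 (117969366) differ from the ends of the gene spans given below. Those spans run from 107296026 to 107302784 and from 117966079 to 117970047, and they contain the STAT motifs of Cish and Socs3. No match to either motif lay in the Socs4 window. A match describes letters and is no evidence of binding. The stretches are printed 5′ to 3′ with the motifs in capitals. The first shows the motif pair of Cish at chr9:107296654-107296683 (plus strand), the next the motif of Socs3 at chr11:117969501-117969530 (minus strand), and the last the 250 bases before the start of Socs1 at chr16:10785537-10785786 (minus strand).
Cish: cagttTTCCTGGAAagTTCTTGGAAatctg
Socs3: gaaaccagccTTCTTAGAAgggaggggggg
Socs1: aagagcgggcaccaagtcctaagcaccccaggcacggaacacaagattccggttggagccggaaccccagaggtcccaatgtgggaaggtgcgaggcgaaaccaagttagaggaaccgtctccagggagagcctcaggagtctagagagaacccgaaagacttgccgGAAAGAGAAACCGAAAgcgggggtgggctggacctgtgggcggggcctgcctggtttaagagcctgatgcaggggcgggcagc

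Library totals ran from 36011906 to 43141474 counts, and each member had at least 315 counts in every library. Prmt5 stood at 109 to 137 CPM in WT and at 43.8 to 52.9 CPM in KO (CPM, the counts-per-million level after TMM scaling). T cell markers were present in all libraries, with Cd4 at 120 to 268 CPM in WT and 270 to 280 CPM in KO. The 3 Th17 markers summed to 312 to 469 CPM in WT and 41.8 to 54.0 CPM in KO. Summed markers of other cells were higher in KO for every list but that of NK cells, whose ranges overlapped. Within the NK list the genes went opposite ways. Klre1 averaged 11.4 CPM in WT and 2.46 CPM in KO, and Klrk1 14.7 and 41.3 CPM. Ncr1 and Klrb1c reached at most 0.480 and 0.216 CPM in any library. The 5 B cell markers summed to 3.61 to 20.3 CPM in WT and 38.1 to 104 CPM in KO. The 6 myeloid and dendritic cell markers summed to 0.663 to 1.5 CPM in WT and 8.82 to 32.2 CPM in KO. Of the 5 granulocyte and mast cell markers, Fcer1a, S100a8 and S100a9 were at 0 in all WT libraries, and the sum was 0 to 0.294 CPM in WT and 7.68 to 39.1 CPM in KO. The 4 gamma delta T cell markers summed to 10.8 to 13.5 CPM in WT and 39.2 to 72.1 CPM in KO, the 2 CD8 markers to 5.57 to 7.87 and 14.7 to 17.2 CPM, and the 4 NK markers to 22.9 to 29.4 and 24.0 to 59.3 CPM. The part of these cells in the results below was not tested. Reads of 4 Y-linked genes were absent from all WT libraries and present in all KO libraries, least in KO replicate 2, so genotype and sex of the cells cannot be told apart here. The column names of all KO libraries also share a number, 51, whose meaning is not stated, and nothing in the labels says whether the cultures came from separate animals. The p-values therefore measure only the spread between these cultures.

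The SOCS family split by genotype. Socs1, Socs2 and Socs6 fell in KO, Socs4, Socs5 and Socs7 rose, and Cish and Socs3, lower on average, did not pass the test. A gene was called at a Benjamini-Hochberg adjusted p under 0.05 in edgeR's quasi-likelihood test over 16006 genes, and all 8 members passed its filter on low counts. Of the 8 members 6 were called, 3 higher and 3 lower, against a background of 42.5% of all tested genes called, 21.7% higher and 20.9% lower. The KO libraries lay wholly above or wholly below the WT libraries for 7 members, all but Socs3, and for 55.6% of all tested genes. The members' median log2 change of -0.44 stood beside a median of -0.00 over all tested genes. Among the members only Socs2 was called with a change of at least 1 on the log2 scale, as were 14.6% of all tested genes. In bulk RNA, fewer cells expressing a gene and less RNA per cell cannot be told apart. KO replicate 2, with the least Y-linked signal, was also set alone against WT. That fit takes its spread from the 3 WT cultures and assumes that the lone KO library varies as they do, so a call lost there does not show a smaller change. Then 0 members were called higher and 2 lower (Socs2 and Socs6) by edgeR, where 16.3% of all genes were called, and 3 and 3 had an unadjusted p under 0.05. With the Y-linked level as a term in the fit (the Y-linked term) the counts were again 0 and 2 (Socs2 and Socs6). At an unadjusted p under 0.05 they were 2 and 3, and 21.7% of all genes were called. WT cultures had no Y-linked signal, so the slope of this term came from KO cultures only. On a scale set to 1 at KO replicate 3, KO replicate 2 stood at 0.13 and KO replicate 1 at 0.96. The genotype change in this fit therefore leaned mostly on KO replicate 2. The 2 fits are thus not separate checks, and neither can part sex from genotype. Scaling by spike-in RNA called 1 member higher and 3 lower (27.8% of all genes). RLE scaling (42.7%), upper-quartile scaling (42.1%), limma-voom (42.7%) and a filter at a mean of 1 CPM (46.3%) each called 3 and 3, DESeq2 (42.8%) called 3 and 4, and no filter (22.4%) called 2 and 5. Leaving out WT replicate 1 (38.8%), 2 (42.7%) or 3 (32.2%) called 7, 8 or 6 members, and leaving out KO replicate 1 (31.7%), 2 (35.1%) or 3 (34.1%) called 5, 5 or 6. The authors' deposited table gave 7 of the 8 members an adjusted p under 0.05, all but Socs3, and 45.8% of the genes it tested.

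**Figure D1:**
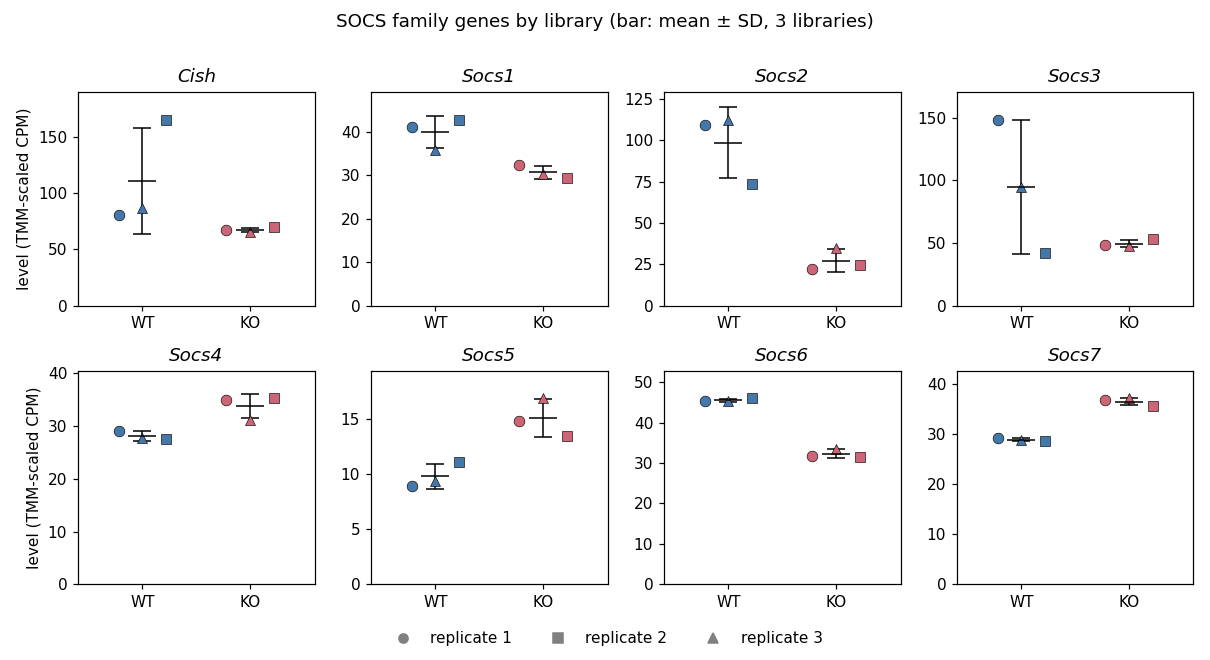
Level of each SOCS family gene in TMM-scaled CPM (vertical axes, from 0) in the 3 WT and 3 KO libraries. Points are libraries, with the marker shape giving the replicate number, and bars are the mean and SD. Socs2 and Socs6 are clearly lower in KO, Socs5 and Socs7 higher, and the WT libraries of Cish and Socs3 are widely spread.

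Socs2 showed the strongest change of the family. Its protein is best known for restraining growth hormone signalling through STAT5, and it is itself a STAT5-induced gene. Socs2 (ENSMUSG00000020027.18, GRCm38 chromosome 10, 95385362 to 95417180, minus strand) stood at 109, 73.9 and 113 CPM in WT replicates 1, 2 and 3 and at 22.3, 24.3 and 35.1 CPM in KO replicates 1, 2 and 3. Every KO library was below every WT library, with KO replicate 3 the highest of the KO libraries and WT replicate 2 the lowest of the WT libraries. The mean fell from 98.6 ± 21.5 CPM to 27.2 ± 6.92 CPM (SD, n = 3 each), to 27.6% of the WT mean. The log2 change was -1.86 ± 0.22 (SE, 95% interval -2.36 to -1.35; edgeR adjusted p = 0.000492). KO replicate 3 also held the highest marker sums of B cells (104 CPM), myeloid cells (32.2 CPM) and granulocytes and mast cells (39.1 CPM), and their part in the Socs2 level was not tested. The Socs2 call held under all 16 alternatives tried, with log2 changes from -2.08 to -1.72.

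Cish and Socs3 were lower on average in KO, varied widely among the WT cultures and were not called. CIS is the STAT5-induced inhibitor that dampens IL-2 and T cell receptor signals. Cish (ENSMUSG00000032578.7, chromosome 9, 107296026 to 107302784, plus strand) stood at 80.5, 166 and 86.7 CPM in the WT libraries and at 67.3, 69.6 and 65.8 CPM in the KO libraries. All KO values lay below all WT values, but WT replicate 2 stood far above the other WT libraries. The log2 change was -0.72 ± 0.25 (95% interval -1.31 to -0.12; edgeR adjusted p = 0.0555). Without WT replicate 2 it was -0.31 with an adjusted p of 0.00419, a smaller change that passed the test, and Cish was also called without WT replicate 1 (-0.91, 0.0235) or WT replicate 3 (-0.87, 0.0468). DESeq2 called Cish (log2 -0.71, adjusted p = 0.0105), and the authors' deposited table gave it a log2 change of -0.62 with an adjusted p of 0.0111.

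Socs3 (ENSMUSG00000053113.3, chromosome 11, 117966079 to 117970047, minus strand) stood at 149, 41.6 and 94.9 CPM in WT and at 48.1, 52.97 and 47.6 CPM in KO. Here WT replicate 2 was the lowest of all 6 libraries, below the KO cultures, while WT replicates 1 and 3 lay above them. The log2 change was -0.94 ± 0.38 (95% interval -1.83 to -0.04; edgeR adjusted p = 0.0858). Without WT replicate 2 it was -1.30 with an adjusted p of 0.000401, and without WT replicate 1 it was -0.47 with an adjusted p of 0.259. The call for this gp130 inhibitor thus differed with which WT cultures entered. The authors' deposited table did not call it either (log2 -0.58, adjusted p = 0.122).

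The WT cultures were further apart than the KO cultures in Socs3 and Cish, though not in Socs2. The highest WT library exceeded the lowest by 3.57-fold for Socs3, 2.06-fold for Cish and 1.53-fold for Socs2, and the highest KO library exceeded the lowest by 1.11-fold, 1.06-fold and 1.58-fold. WT replicate 2 was the highest of the WT libraries for Cish and the lowest for Socs2 and Socs3. Further genes of the pathway, chosen after their values were seen, also set that culture apart. The kinase gene Pim1, a STAT5 target, stood at 340 CPM there and at 631 and 626 CPM in WT replicates 1 and 3. Stat3 stood at 465 CPM there against 247 and 293 CPM. Cd4 stood at 120 CPM there against 268 and 233 CPM.

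Socs1 fell slightly. SOCS1 blocks JAK kinases directly and is the main restraint on interferon-γ signalling. Socs1 (ENSMUSG00000038037.5, chromosome 16, 10782240 to 10785536, minus strand) stood at 41.0, 42.8 and 35.7 CPM in WT and at 32.3, 29.4 and 30.3 CPM in KO. The groups did not overlap. The log2 change was -0.38 ± 0.09 (95% interval -0.58 to -0.17; edgeR adjusted p = 0.0110). The call was lost with spike-in scaling (-0.23, adjusted p = 0.490), with KO replicate 2 alone in its group (-0.44, 0.101) and given the Y-linked term (-0.45, 0.0757).

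Of the members known from growth factor receptors 1 fell and 3 rose. Socs6, whose product binds receptor tyrosine kinases such as KIT, stood at 45.2, 46.0 and 45.3 CPM in WT and at 31.8, 31.5 and 33.5 CPM in KO (ENSMUSG00000056153.14, chromosome 18). The libraries of each group were nearly level, and the groups stood well apart. Its log2 change was -0.50 ± 0.06 (95% interval -0.64 to -0.35; edgeR adjusted p = 0.000673). The call was lost with spike-in scaling alone (-0.36, adjusted p = 0.212).

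Socs7 (ENSMUSG00000038485.5, chromosome 11, 97362551 to 97398542, plus strand), whose product binds the adaptor Nck, was as even within groups but moved the other way. It stood at 29.2, 28.7 and 28.8 CPM in WT and at 36.8, 35.6 and 37.1 CPM in KO, with no overlap. The log2 change was 0.34 ± 0.06 (95% interval 0.19 to 0.48; edgeR adjusted p = 0.00411). The call was lost with spike-in scaling (0.47, adjusted p = 0.0825), with KO replicate 2 alone in its group (0.31, 0.114) and given the Y-linked term (0.29, 0.0771).

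Socs5 and Socs4 encode the pair of members tied to EGF receptor turnover. Socs5 (ENSMUSG00000037104.8, chromosome 17, 87107679 to 87137839, plus strand) stood at 8.92, 11.1 and 9.42 CPM in WT and at 14.9, 13.5 and 16.9 CPM in KO. The groups did not overlap, and the log2 change of 0.62 ± 0.13 (95% interval 0.32 to 0.92, edgeR adjusted p = 0.00671) was the highest of the 3 members that rose. The call was lost with KO replicate 2 alone in its group (0.46, adjusted p = 0.143) and given the Y-linked term (0.42, 0.163). Socs4 (ENSMUSG00000048379.9, chromosome 14, 47276931 to 47296102, plus strand) stood at 29.1, 27.5 and 27.7 CPM in WT and at 34.9, 35.2 and 31.1 CPM in KO. Its change was the smallest of the family, with log2 0.26 ± 0.08 (95% interval 0.08 to 0.44) and an edgeR adjusted p of 0.0280. That call was lost without WT replicate 3 (adjusted p = 0.0949), KO replicate 1 (0.0980) or KO replicate 2 (0.0816), with spike-in scaling (0.152), without the filter on low counts (0.0662), with KO replicate 2 alone in its group (0.109) and given the Y-linked term (0.0862).

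**Figure D2:**
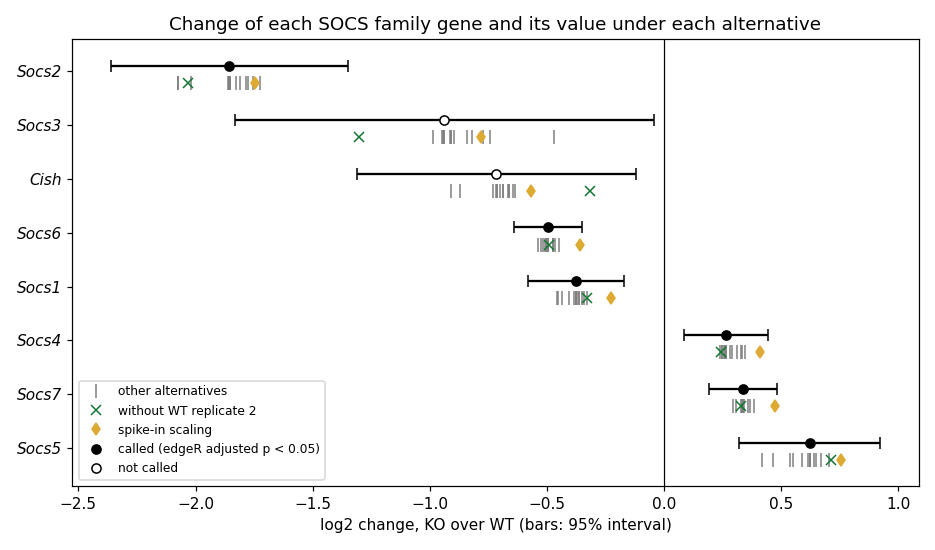
Log2 change (KO over WT, horizontal axis) of the 8 SOCS family genes with its 95% interval. Filled points were called by edgeR. Small marks below each point are the values under the 16 alternatives, with spike-in scaling and the fit without WT replicate 2 marked apart. No member changed direction, and the marks of Socs3 and Cish spread widely.

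The level of each member relative to the others was compared per kilobase of the deposited gene length. In WT the mean order was Socs3 at 37.2 ± 21.0 CPM per kilobase, Cish at 23.6 ± 10.1, Socs2 at 23.2 ± 5.07, Socs1 at 13.7 ± 1.26, Socs6 at 7.53 ± 0.0692, Socs7 at 4.12 ± 0.0336, Socs4 at 4.08 ± 0.124 and Socs5 at 2.23 ± 0.260. The libraries of Socs3 and Cish, of Cish and Socs2, and of Socs7 and Socs4 overlapped, so those neighbours had no fixed order. In KO, Socs3 (19.4 ± 1.16), Cish (14.4 ± 0.406) and Socs1 (10.5 ± 0.516) stood in that order in every library. Socs2 (6.42 ± 1.63), Socs6 (5.35 ± 0.180), Socs7 (5.20 ± 0.113) and Socs4 (4.90 ± 0.334) followed with overlapping neighbours, and Socs5 (3.44 ± 0.391) was lowest. Socs2 was thus level with Cish in WT and nearer to Socs6 in KO. With exon lengths from GENCODE M21 in place of the deposited lengths, Socs3 stayed highest and Socs5 lowest in both groups, Socs2 ranked below Socs1 in WT and below Socs4 in KO, and Socs1 ranked above Cish in KO.

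Summed over the family, the level was 133, 102 and 112 CPM per kilobase in WT replicates 1, 2 and 3 and 68.5, 69.9 and 70.6 in KO replicates 1, 2 and 3. In KO the mean sum was 60.2% of that in WT. The cytokine-induced members Cish, Socs1, Socs2 and Socs3 together summed to 115, 83.7 and 94.5 CPM per kilobase in WT and 49.5, 51.4 and 51.4 in KO, which is 51.9% of the WT mean. Of these members Socs1 and Socs2 were called, while Socs3 and Cish were not and varied widely in WT. The means of Socs3 and Cish were 37.2 and 23.6 CPM per kilobase in WT and 19.4 and 14.4 in KO, a large part of the sum. Socs4 to Socs7 together stayed near their WT sum, at 17.9, 18.2 and 17.8 in WT and 19.0, 18.5 and 19.2 in KO (105%). The share of the cytokine-induced members in the family was 84.3% ± 2.22 in WT and 72.9% ± 0.623 in KO (SD, n = 3). These sums are descriptions without a test. With exon lengths from GENCODE the KO sums were 55.3% and 111% of WT.

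The make-up within that sum also differed. Socs2 took 19.3%, 17.1% and 23.7% of the family level in the WT libraries and 7.67%, 8.20% and 11.7% in the KO libraries. Socs3 took 43.7%, 16.0% and 33.1% in WT and 27.5%, 29.7% and 26.4% in KO. Cish took 12.9%, 34.6% and 16.4% in WT and 20.9%, 21.2% and 19.8% in KO. The Socs2 share was thus lower in all 3 KO libraries, while the Socs3 and Cish shares in KO lay within their WT ranges.

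**Figure D3:**
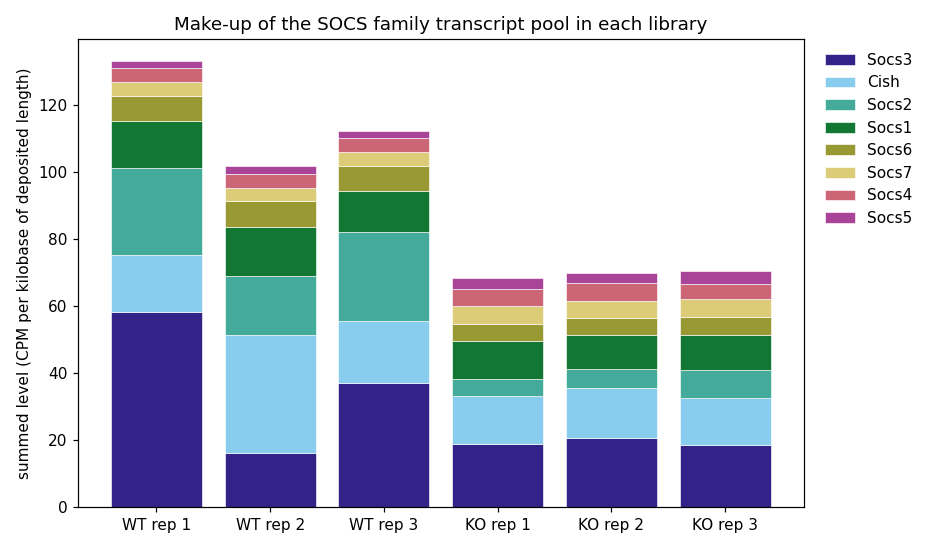
Summed level of the 8 SOCS family genes in each library, in CPM per kilobase of deposited gene length (vertical axis, from 0), with 1 colour for each gene. The WT bars reach 102 to 133 and the KO bars 68.5 to 70.6. The 3 WT bars differ in their Socs3 and Cish segments.

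SOCS proteins act on JAK kinases and answer to STATs. Of 4 JAK genes 1 fell and 0 rose (0 rose also at an unadjusted p under 0.05, and with DESeq2 and limma-voom), with a median log2 change of -0.13, near 0 with spike-in scaling. The call was Jak3, the kinase of the common gamma chain receptors, which stood at 84.4, 73.3 and 80.3 CPM in WT and at 48.9, 62.0 and 50.95 CPM in KO (log2 -0.56 ± 0.10, edgeR adjusted p = 0.00400). Jak3 lost its call with spike-in scaling (log2 -0.43, adjusted p = 0.116), with KO replicate 2 alone in its group (-0.35, 0.115) and given the Y-linked term (-0.31, 0.107). Jak1 was not called (log2 0.03, 95% interval -0.11 to 0.17).

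Of 7 STAT genes 2 rose and 0 fell (0 fell also at an unadjusted p under 0.05, and with DESeq2 and limma-voom). The counts for JAK and STAT genes stand beside 42.5% of all tested genes called. The median log2 change of the STAT genes was -0.10, and 0.05 with spike-in scaling. Stat4, which carries the IL-12 signal, stood at 61.3, 57.4 and 57.6 CPM in WT and at 78.8, 89.8 and 80.7 CPM in KO (log2 0.50 ± 0.07, edgeR adjusted p = 0.00109). Stat3 (log2 -0.10, 95% interval -0.59 to 0.40), Stat5a (0.01, -0.14 to 0.16) and Stat5b (-0.12, -0.26 to 0.02) were not called, so the genes encoding the STATs that induce Socs3, Cish and Socs2 gave no call in either direction.

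Receptors upstream of the family moved in both directions. Of 24 tested genes for JAK-coupled receptors 11 fell and 5 rose, with a median log2 change of -0.34. Of all tested genes 20.9% fell and 21.7% rose. Among the 5, Il9r, Csf2rb and Osmr averaged 0.0258, 0.0459 and 0.0693 CPM in WT and passed the filter on low counts through KO. With a filter at a mean of 1 CPM 11 of 21 fell and 2 rose (median -0.49, 46.3% of all genes called). That mean is over all 6 libraries, and Il13ra1, which fell, averaged 0.540 CPM in KO and passed it through WT. Il6st, which encodes gp130 and so the docking site of SOCS3, stood at 264, 291 and 278 CPM in WT and at 153, 188 and 159 CPM in KO (log2 -0.74 ± 0.09, edgeR adjusted p = 0.000501). Il6ra, the IL-6 binding chain, stood at 93.3, 55.9 and 86.9 CPM in WT and at 52.4, 50.3 and 52.1 CPM in KO (log2 -0.61 ± 0.17, edgeR adjusted p = 0.0254). Its call was lost without any 1 library other than WT replicate 2 (adjusted p from 0.0667 to 0.0877), as well as with spike-in scaling (0.0746). It was also lost with KO replicate 2 alone in its group (log2 -0.64, adjusted p = 0.229) and given the Y-linked term (-0.65, 0.186), where the change was no smaller. The genes of the IL-2 receptor chains Il2ra and Il2rb fell, with log2 changes of -1.17 and -0.54, and Il2rg was not called (log2 0.04, 95% interval -0.14 to 0.21). Il13ra1, a chain of receptors for IL-4 and IL-13, stood at 5.64, 6.21 and 6.33 CPM in WT and at 0.408, 0.424 and 0.787 CPM in KO. With KO replicate 2 alone in its group 6 receptor genes fell and 3 rose (16.3% of all genes called), and the Y-linked term gave the same counts (21.7% called). Il2rb was not called in either fit, though its log2 changes of -0.56 and -0.57 were no smaller. Spike-in scaling gave 7 and 5 (27.8% called), without Il2rb (-0.41).

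Among 18 tested cytokine genes that signal through JAKs 8 rose and 6 fell (median log2 0.06, the same with Il15, at 0 counts in all WT libraries, set to its lower bound against 3 counts over the group), where 21.7% of all tested genes rose and 20.9% fell. Il12a, Il27 and Il6 averaged 0.135, 0.143 and 0.255 CPM in WT and, like Il15, passed the filter on low counts through KO. With a filter at a mean of 1 CPM 5 of 14 rose and 6 fell, and the median was -0.14 (46.3% of all genes called). That mean is over all 6 libraries. The risers Ifng, Il6 and Il13 averaged 0.928, 0.255 and 0.786 CPM in WT and still passed it through KO. Il22, which fell, averaged 0.521 CPM in KO and passed it through WT. Il21, which acts through STAT3, and Lif, which acts through gp130, fell, with log2 changes of -1.27 and -1.40. Il2, which induces Cish and Socs2 through STAT5, stood at 24.4, 21.0 and 16.3 CPM in WT and at 31.9, 33.3 and 37.0 CPM in KO (log2 0.73 ± 0.15, edgeR adjusted p = 0.00567). The Il2 call was lost with KO replicate 2 alone in its group (log2 0.70, adjusted p = 0.110) and given the Y-linked term (0.68, 0.0948), with changes of nearly the same size. Ifng, which induces Socs1, was near 1 CPM in the WT libraries and stood at 40.6, 26.9 and 12.0 CPM in KO. Il6 was low, at 0.0982 to 0.396 CPM in WT and 1.97 to 4.33 CPM in KO, beside the IL-6 added to every culture. With KO replicate 2 alone in its group 2 cytokine genes rose and 5 fell (16.3% of all genes called), and given the Y-linked term 3 and 5 (21.7%).

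Genes known as STAT5 and STAT3 targets were mostly lower in KO, in the same libraries where the Th17 markers summed to 41.8 to 54.0 CPM against 312 to 469 CPM in WT. Of all tested genes 20.9% fell and 21.7% rose. Of 9 tested STAT5 targets outside the family 6 fell and 1 rose (median log2 -0.80), among them Bcl2, the survival gene, from 198 ± 33.1 to 87.7 ± 10.8 CPM and Prdm1, which encodes BLIMP-1, from 3.29 ± 0.258 to 0.738 ± 0.288 CPM. Bcl2l1, the survival gene encoding BCL-XL, rose from 6.75 ± 0.688 to 13.2 ± 0.636 CPM. Of 10 STAT3 targets of Th17 cells 6 fell and 1 rose (median log2 -0.97), with Maf at 65.3 ± 11.2 CPM in WT and 26.8 ± 3.54 CPM in KO. Both lists were chosen with results of these data known and share Il2ra, Il23r, Il21 and Osm with the receptor and cytokine lists. Calls were 1 higher and 5 lower in either list with KO replicate 2 alone in its group (16.3% of all genes called), and 1 and 4 (STAT5 list) and 1 and 5 (STAT3 list) given the Y-linked term (21.7% called).

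**Figure D4:**
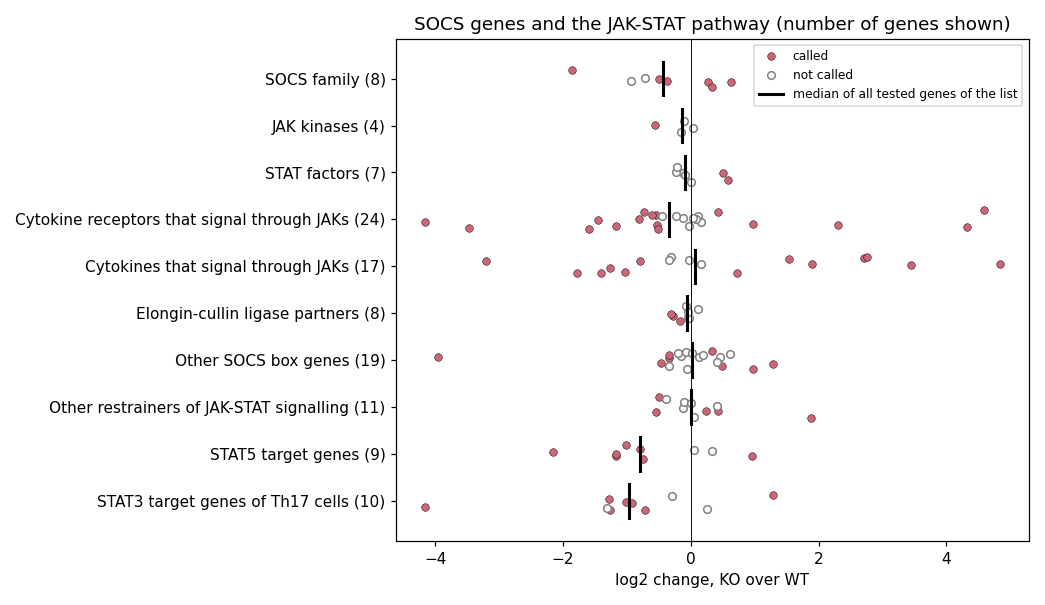
Log2 change (KO over WT, horizontal axis) of tested genes in the SOCS family and in 9 lists of the JAK-STAT pathway, with the number of genes shown in brackets. Filled points were called by edgeR, and black bars are medians over all tested genes of a list. Il15, at 0 counts in all WT libraries, is not drawn. Most STAT5 and STAT3 targets lie to the left of 0 (medians -0.80 and -0.97).

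SOCS boxes recruit a ubiquitin ligase. Of 8 genes for elongins, cullins and their partners 3 fell and 0 rose (1 rose at an unadjusted p under 0.05, 0 with DESeq2, 0 with limma-voom, and 1 with upper-quartile scaling or a filter at a mean of 1 CPM), beside 42.5% of all tested genes called. The adaptors Eloc and Elob stood at 119 ± 3.997 and 190 ± 10.5 CPM in WT and at 98.0 ± 2.90 and 153 ± 6.20 CPM in KO (log2 -0.28 and -0.31). The scaffold gene Cul5 was not called (log2 0.12, edgeR adjusted p = 0.0888), but was called with upper-quartile scaling (0.16, 0.0301) and with the filter at a mean of 1 CPM (0.14, 0.0407). The median of this list, -0.06, was 0.07 with spike-in scaling, and its calls were all lost there, with KO replicate 2 alone in its group and given the Y-linked term. In the last 2 fits Eloc stood at log2 -0.27 and -0.27 and Elob at -0.27 and -0.27, near their values above.

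Of 19 tested genes for other SOCS box proteins 4 rose and 4 fell, with a median log2 change of 0.01, a called share near the 42.5% of all tested genes. Spsb2, which rose, averaged 0.385 CPM in WT and passed the filter on low counts through KO. Asb14, which fell, averaged 0.0154 CPM in KO and passed it through WT. With a filter at a mean of 1 CPM 3 of 15 rose and 2 fell (median -0.03, 46.3% of all genes called). Wsb1, a SOCS box protein with WD repeats, fell from 112 ± 5.16 to 80.7 ± 1.72 CPM, and Asb2, which carries ankyrin repeats, rose from 5.08 ± 0.789 to 9.93 ± 1.39 CPM. Of 11 other restrainers of JAK-STAT signalling 3 rose and 2 fell, again a called share near the 42.5% of all tested genes. Their median log2 change was 0.01 (0.15 with spike-in scaling). The phosphatase genes Ptpn2, which acts on JAK1 and JAK3, and Ptpn11 fell from 218 ± 7.49 to 150 ± 8.69 CPM and from 168 ± 8.18 to 119 ± 7.84 CPM. Usp18, which blocks the type I interferon receptor, rose from 5.40 ± 1.62 to 19.8 ± 4.57 CPM, and Pias2 by log2 0.42 ± 0.08. With spike-in scaling the calls of Wsb1, Ptpn2 and Ptpn11 were lost, and with KO replicate 2 alone in its group or given the Y-linked term those of Asb2 (log2 0.84 and 0.80) and Pias2 (0.38 and 0.37).

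Genes whose profile over the 6 libraries was most like that of a member were found by the root mean square difference of log2 CPM, each gene centred on its own mean, among 9112 other genes. For Socs2, the falling member with the lowest p, they were Fads2 (0.10), a fatty acid desaturase gene, Mgll (0.18), Ccr4 (0.18) and Mcf2l (0.18), while the median gene lay at 0.96. Fads2 stood at 43.6, 33.7 and 46.0 CPM in WT and at 10.2, 9.11 and 14.7 CPM in KO, low in WT replicate 2 and highest among KO libraries in replicate 3, as Socs2 was. That shared pattern follows from how Fads2 was picked. The distance of the median gene grows with the size of the member's own change. For Socs7, the rising member with the lowest p, they were Polr1c (0.02), Cacybp (0.02), Ppm1d (0.02) and Anapc4 (0.02), with the median gene at 0.26.

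Only Cish shared exon bases with other genes in the annotation. The antisense pair Gm17040 and Gm17041 shared 261 and 479 exon bases with it on the opposite strand. They held 36 to 94 and 1 to 18 counts per library, against 2626 to 6742 for Cish. The libraries were stranded, but whether the counting used the strand is not given in the sources used here.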

How the data were processed

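Total RNA of 6 cultures was sequenced from stranded libraries after removal of ribosomal RNA, per the labels. The authors deposited whole-number counts per gene, a normalized signal (the raw count divided by 1 factor per sample), their own log2 fold change with its adjusted p-value (KO over WT), and a gene length. The submitters' processing notes name STAR, featureCounts, DESeq2, DESeq and GRCm38.p3, without saying which made which column. Fits used the counts alone, after removal of 92 spike-in entries.

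Samples were grouped by title. Genes were kept by filterByExpr (minimum count 10, minimum total 15). edgeR 4.0.16 (R 4.3.3) with TMM scaling gave quasi-likelihood tests on genotype alone, with Benjamini-Hochberg adjustment across the 16006 genes. The SE is the absolute coefficient over the square root of F. The script was tested on simulated data. DESeq2 1.42.0 and limma 3.58.1 were alternatives, beside those in the closing section.

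The members, lists and alternatives were chosen with earlier results of these data known. Lists are described by counts and medians only. The rule for named genes took all members, up to 4 genes of each list with the lowest p, 17 further pathway genes and the 4 nearest profiles. Some of these genes are not reported here. Positions came from GENCODE M21 (GRCm38), where 2 members had another identifier version, and promoters from RefSeq (GRCm38.p6). Shares and means are over 3 libraries per group.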

Additional observations from a re-analysis of the deposited data

How the results depend on the processing

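No member changed direction in any of 16 alternatives (128 values), and 103 of these values stayed on their side of the threshold. Spike-in scaling moved the median log2 change of all genes to 0.14, called 4448 genes and 1 member higher, ended the calls of Socs1 (-0.23), Socs4 (0.41), Socs6 (-0.36) and Socs7 (0.47), and called Socs3 (-0.78) and Cish (-0.57). DESeq2 called Cish (-0.71). Without a filter 5 members were called lower, with Socs3 (-0.95) and Cish (-0.72) called and Socs4 (0.26) lost. With KO replicate 2 alone in its group 2752 genes were called, 0 members were called higher, and the calls of Socs1 (-0.44), Socs4 (0.33), Socs5 (0.46) and Socs7 (0.31) were lost. With the Y-linked term 3478 genes and 0 members higher were called, without Socs1 (-0.45), Socs4 (0.34), Socs5 (0.42) and Socs7 (0.29). The fit with that term also leaned mostly on KO replicate 2 and is no separate check. Leaving out 1 library at a time called 5203 to 7033 genes, 2 to 3 members higher and 3 to 5 lower, with log2 changes from -0.91 to -0.31 for Cish, -1.30 to -0.47 for Socs3 and 0.24 to 0.33 for Socs4. The cause of these differences was not tested.

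Among other named genes, all of them uncalled, signs turned for Stat3 (0.046), Stat5b (0.0066) and Tyk2 (0.018) with spike-in scaling. They also turned for Jak1 (-0.011 and -0.026), Stat5a (-0.068 and -0.088) and Il2rg (-0.077 and -0.11) with KO replicate 2 alone in its group and given the Y-linked term. With 1 library left out, values ran from -0.012 to 0.081 for Jak1, -0.032 to 0.053 for Stat5a, -0.0059 to 0.10 for Il2rg and -0.28 to 0.21 for Stat3.

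Same-numbered WT and KO libraries did not deviate together (correlations of -0.024, 0.0060 and 0.082). Of the replicate numbers, only 3 correlated best with itself. With 3 libraries per group such correlations cannot show whether the cultures were set up in pairs. With the replicate block 6190 genes (38.7%) were called, against 6809, and no member's call changed. The block gave log2 -1.86 for Socs2, -0.77 for Socs3 and -0.64 for Cish.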
